A study of Homo sapiens with 3 samples.

Results

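Cytokine and interferon receptors have no kinase of their own and signal through Janus kinases (JAKs), which bind the inner tails of the receptor chains, phosphorylate them when a ligand pairs the chains, and so recruit STAT transcription factors. In all, 10 genes of this upstream layer are described here: the kinases JAK1, JAK2 and TYK2, the chains IL6ST, OSMR and LIFR of the gp130 family, which bind interleukin-6 type cytokines, and the interferon receptor chains IFNAR1, IFNAR2, IFNGR1 and IFNGR2. JAK1 is the kinase that all of these receptors share, it pairs with TYK2 on the type I interferon receptor and with JAK2 on the interferon-gamma receptor, and its protein has been reported as a substrate of the deubiquitinase USP16. The genes were taken by symbol, with no measured value in the rule, and all 10 were found among the 50868 genes of the count files and passed the filter on low counts.

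The cells were NCI-H23, an established human lung adenocarcinoma line, given either control siRNA (1 library) or siRNA against USP16 (2 libraries, numbered 1 and 2 in their labels). No other genotype, drug or cytokine is named for any of the 3 libraries, and the time after transfection is not given in the sources used here. Whether numbers 1 and 2 stand for separate siRNAs or separate cultures is not told by the labels, and the p-values therefore reflect the spread of these particular samples alone, part of which may be technical. Only mRNA was measured, so nothing here bears on JAK1 protein or its ubiquitination.

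The libraries held 14007161, 13956382 and 15071179 counts in the control, knockdown library 1 and knockdown library 2, the order in which values are given throughout. USP16 counts were 632, 109 and 245, which put the knockdown libraries at 16.2% and 33.2% of the control level. Of the epithelial markers, KRT8 (2214, 1118 and 1880 counts) and KRT18 (2903, 1986 and 3364) were well above 0, whereas EPCAM (38, 161 and 232), KRT7 (81, 23 and 49), KRT19 (62, 55 and 52) and CDH1 (142, 39 and 93) were low, and the 6 together had 5440, 3382 and 5670 counts. The 8 leukocyte markers summed to 193, 285 and 267 counts, with the defining PTPRC at 0, 0 and 1 and CD3E at 0 throughout. The 7 fibroblast markers summed to 1051, 1078 and 1041 counts, most of them from COL1A1, and the 5 endothelial markers to 6, 8 and 12.

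Levels below are CPM, the counts of a gene relative to the library size, scaled by trimmed means, with 95% exact Poisson intervals that cover counting error only. A change is the log2 ratio of a knockdown library to the control, and a mean of both is given with its SD, which leaves out the variation of the lone control. Both knockdown libraries are set against that same control, so an error in it would move both changes the same way.

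JAK1, the shared kinase, was lower in both knockdown libraries, TYK2 was close to the control, and JAK2 was scarce in all 3 libraries. JAK1 had 5350, 3322 and 3349 counts, or 402 CPM (391 to 413) in the control, and 234 CPM (226 to 242) and 215 CPM (208 to 223) after knockdown. The control stood above both knockdown libraries, whose intervals lie well below its own. This put JAK1 at 58.3% and 53.6% of the control (exact binomial 95% intervals 55.8 to 60.9 and 51.3 to 56.0), a mean log2 change of -0.84 ± 0.09 (SD, n = 2). Adjusted over the 17287 genes tested, edgeR's quasi-likelihood test gave an adjusted p of 0.999 for JAK1, as it did for each of the other 9 genes, so none passed the threshold of 0.05. USP16, the silenced gene, did not pass either (edgeR adjusted p 0.561). A missing call therefore does not show that a gene was unchanged. In bulk RNA, fewer cells that express a gene and less RNA per cell cannot be told apart.

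TYK2 had 1186, 1151 and 1161 counts and levels of 89.1 CPM (84.1 to 94.3), 81.2 (76.6 to 86.0) and 74.6 (70.4 to 79.1). The control was again the highest of the 3, but the distance was small, at -0.13 and -0.25 on the log2 scale. JAK2 had only 66, 95 and 69 counts, or 4.96 CPM (3.83 to 6.31), 6.70 (5.42 to 8.19) and 4.44 (3.45 to 5.61). The control lay between the knockdown libraries and its interval overlapped both, so no difference in JAK2 was detectable at this depth. JAK3, the fourth kinase of the family and best known from lymphoid cells, had 175, 148 and 189 counts.

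The unequal position of the kinases can also be expressed within each library, where no scaling between libraries enters. These ratios restate the counts above and are not separate support, and their intervals cover counting error only. Per TYK2 count there were 4.51 JAK1 counts (exact binomial 95% interval 4.24 to 4.81) in the control, and 2.89 (2.70 to 3.09) and 2.88 (2.70 to 3.09) after knockdown. The knockdown ratios nearly coincide and both lie below the control interval.

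The promoter sequences of JAK1 and TYK2, chosen after the changes were seen, hold different elements. Whether such elements bear on the changes was not tested. The sequences come from RefSeq (GRCh38.p14), run 5′ to 3′ and stop before the first annotated exon on the same strand. Capitals mark GGGCGG (the GC box bound by SP1-type factors) and CCAAT (the CCAAT box bound by NF-Y) on either strand, and in JAK1 neighbouring GC boxes share a base.
JAK1, chr1:64966550-64966799, minus strand: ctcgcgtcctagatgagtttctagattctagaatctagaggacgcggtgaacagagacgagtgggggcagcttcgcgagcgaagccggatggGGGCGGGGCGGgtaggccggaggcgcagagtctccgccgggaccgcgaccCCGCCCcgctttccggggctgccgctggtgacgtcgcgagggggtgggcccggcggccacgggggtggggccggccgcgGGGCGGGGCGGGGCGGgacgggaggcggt
TYK2, chr19:10380677-10380822, minus strand: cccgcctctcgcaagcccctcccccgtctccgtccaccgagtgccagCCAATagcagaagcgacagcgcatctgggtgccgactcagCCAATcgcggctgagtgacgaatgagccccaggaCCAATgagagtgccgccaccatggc
In the full window of 300 bases (250 before to 50 after the start), JAK1 had 6 GC boxes and 0 CCAAT boxes, and TYK2 had 0 GC boxes and 6 CCAAT boxes. The TYK2 matches that begin at -90, -56 and -30 lie past the annotated gene start at 10380676, inside the gene. Of all 35116 promoter windows of that length, 45.0% held a GC box and 34.6% a CCAAT box, so either element is common. A match describes the letters and does not show that a factor binds there.

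**Figure D1:**
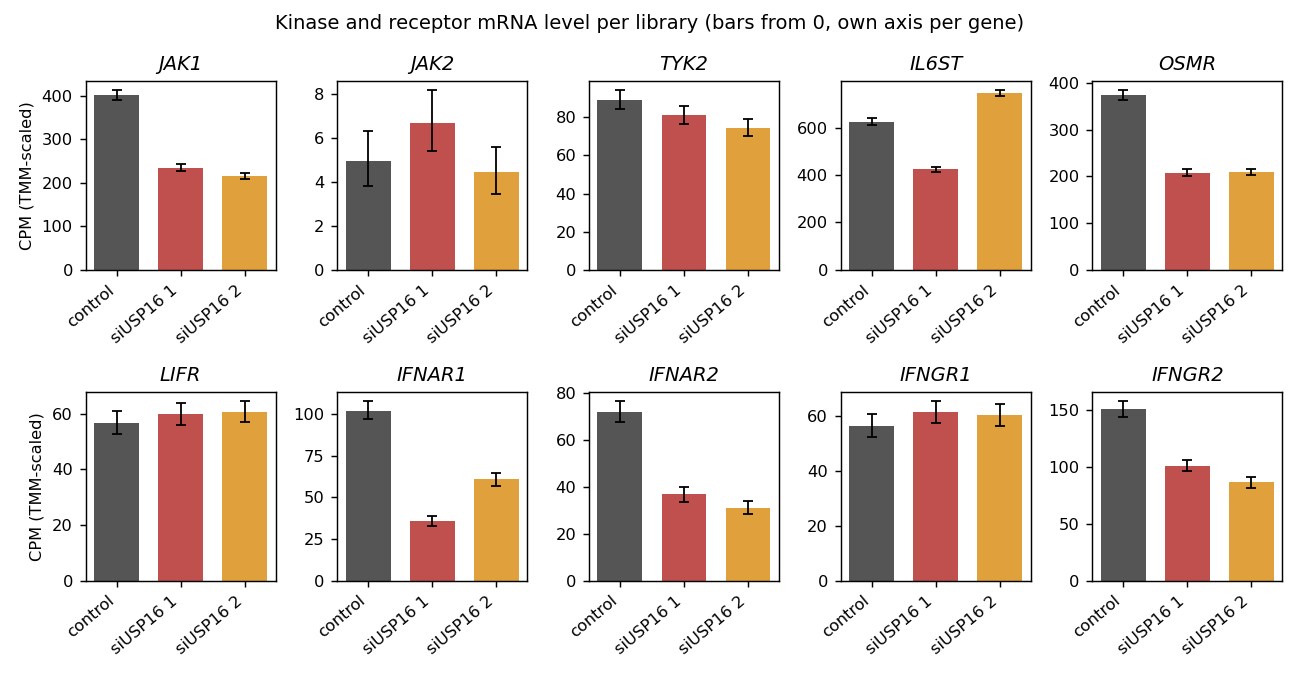
Level of each of the 10 genes in CPM (vertical axes, each starting at 0 with its own range) in the control and the 2 knockdown libraries, with 1 bar per library and whiskers for the 95% Poisson interval of the count. JAK1, OSMR, IFNAR1, IFNAR2 and IFNGR2 stand clearly lower in both knockdown libraries, TYK2, LIFR and IFNGR1 are nearly level, and the bars of IL6ST lie on opposite sides of the control.

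Among the gp130 family chains, OSMR was lower in both knockdown libraries, LIFR was level, and IL6ST differed between the knockdown libraries themselves. OSMR, the chain that pairs with gp130 to bind oncostatin M, had 4984, 2933 and 3249 counts. Its level was 374 CPM (364 to 385) in the control, against 207 CPM (200 to 215) and 209 CPM (202 to 216) after knockdown. The knockdown libraries agreed closely and both lay below the control, at 55.3% and 55.8% of its level, a mean log2 change of -0.85 ± 0.01 (SD, n = 2).

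LIFR, which takes the place of OSMR when gp130 binds leukemia inhibitory factor, had 755, 848 and 944 counts. Its levels were 56.7 CPM (52.7 to 60.9), 59.8 (55.9 to 64.0) and 60.7 (56.9 to 64.7). The control was the lowest of the 3, yet all intervals overlap, and the log2 changes were 0.08 and 0.10. The ratio of OSMR to LIFR counts was 6.60 (6.11 to 7.14) in the control, and 3.46 (3.20 to 3.74) and 3.44 (3.20 to 3.70) after knockdown. These chains are neighbours on chromosome 5, separated by 238 kb.

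IL6ST encodes gp130 itself, the signalling chain shared by the whole family, and had 8312, 6012 and 11583 counts. The levels were 624 CPM (611 to 638), 424 (414 to 435) and 745 (731 to 758). Knockdown library 1 was below the control and knockdown library 2 above it, at 67.9% and 119% of its level, with log2 changes of -0.56 and 0.25. The mean of -0.15 ± 0.57 (SD, n = 2) therefore describes neither library. The gap between the knockdown libraries was 0.81 on the log2 scale, and among the 11236 genes averaging 100 counts or more, 83.3% had a gap no larger than this.

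The part of the OSMR promoter window that lies before its first annotated exon is also shown, chosen after its changes were seen. Capitals mark GGGCGG read on the minus strand, as CCGCCC, in overlapping copies.
OSMR, chr5:38845762-38845857, plus strand: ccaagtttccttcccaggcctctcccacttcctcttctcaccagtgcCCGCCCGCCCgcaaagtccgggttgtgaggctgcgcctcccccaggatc
The full OSMR window held 4 GC boxes, 0 CCAAT boxes and 1 match to the AP-1 site TGANTCA, which 7.71% of all windows held. The GC boxes that begin at -23 and 39 and the AP-1 match lie past the annotated gene start. Its 3′ end overlaps RICTOR on the opposite strand, with 229 exonic bases in common, and RICTOR had 866, 1113 and 1746 counts with changes of 0.27 and 0.79, opposite in sign to OSMR. RAVER2, which shares 4 bases with JAK1, had 470, 667 and 453 counts.

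Of the 4 interferon receptor chains, 3 were lower in both knockdown libraries, a pattern that 33.5% of all genes tested had, and IFNGR1 was not. IFNAR1 and IFNAR2 form the receptor of type I interferons such as interferon-beta, with TYK2 bound to IFNAR1 and JAK1 to IFNAR2. IFNAR1 had 1362, 507 and 946 counts, or 102 CPM (96.9 to 108), 35.8 (32.7 to 39.0) and 60.8 (57.0 to 64.8). Both knockdown libraries were below the control by an unequal amount, at 35.0% and 59.5% of its level (31.5 to 38.7 and 54.7 to 64.6). The log2 changes were -1.51 and -0.75.

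IFNAR2 had 960, 522 and 484 counts, or 72.1 CPM (67.6 to 76.8), 36.8 (33.7 to 40.1) and 31.1 (28.4 to 34.0). It was at 51.1% and 43.2% of the control, and the log2 changes averaged -1.09 ± 0.17 (SD, n = 2). Here the knockdown libraries were closer to each other than for IFNAR1, and in the reverse order. The ratio of IFNAR1 to IFNAR2 counts lay on opposite sides of the control, with 1.42 (1.31 to 1.54) in the control, 0.971 (0.858 to 1.10) in knockdown library 1 and 1.95 (1.75 to 2.19) in library 2.

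IFNAR2 is also spanned by a readthrough gene that joins it to IL10RB on the same strand, named AP000295.9 in the files, which had 101, 92 and 72 counts. With these counts added to IFNAR2, a check chosen after seeing the data, the changes were -0.88 and -1.16. The IFNAR1 promoter is shown as an example without the marked elements. The 300-base window has no GC box and no CCAAT box, so nothing is in capitals.
IFNAR1, chr21:33324145-33324394, plus strand: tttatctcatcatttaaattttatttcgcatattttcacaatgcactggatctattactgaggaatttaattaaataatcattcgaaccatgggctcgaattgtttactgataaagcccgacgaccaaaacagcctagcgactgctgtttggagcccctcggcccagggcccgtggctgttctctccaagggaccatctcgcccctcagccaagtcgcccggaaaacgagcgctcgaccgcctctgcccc

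The interferon-gamma receptor joins IFNGR1, the ligand-binding chain that carries JAK1, to IFNGR2, which carries JAK2. IFNGR2 had 2008, 1432 and 1341 counts, or 151 CPM (144 to 158), 101 (95.9 to 106) and 86.2 (81.7 to 91.0). The control was above both knockdown libraries, with log2 changes of -0.58 and -0.81. IFNGR1 had 753, 871 and 940 counts, or 56.6 CPM (52.6 to 60.7), 61.5 (57.4 to 65.7) and 60.4 (56.6 to 64.4). Its control was the lowest of the 3 with overlapping intervals, and the log2 changes were 0.12 and 0.10. Within a library, IFNGR2 counts exceeded IFNGR1 counts by a factor of 2.67 (2.45 to 2.90) in the control, and 1.64 (1.51 to 1.79) and 1.43 (1.31 to 1.55) after knockdown. TMEM50B lies opposite IFNGR2 with 380 exonic bases in common and had 196, 185 and 226 counts.

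**Figure D2:**
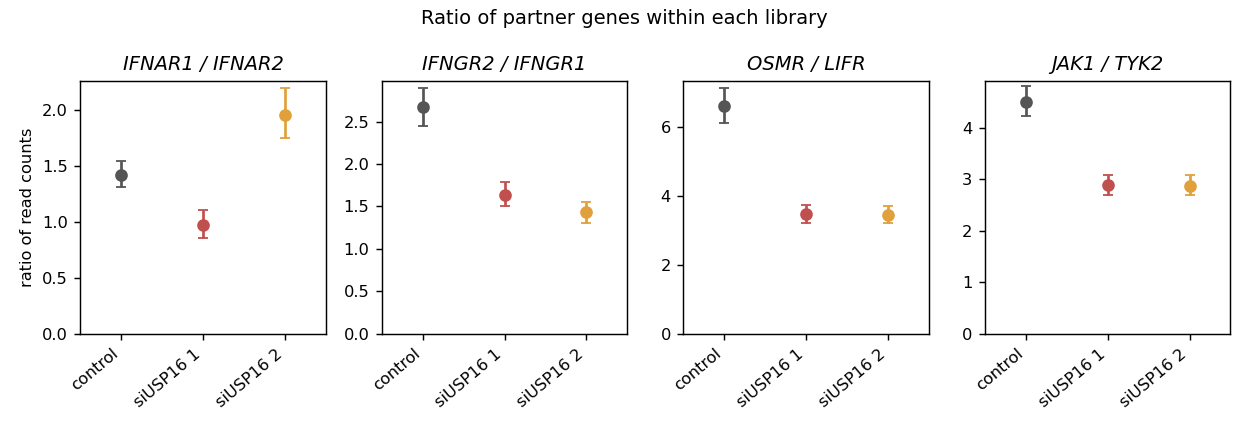
Ratio of the read counts of partner genes within each library (vertical axes from 0), with points for the control and the 2 knockdown libraries and whiskers for exact binomial 95% intervals. The ratios of IFNGR2 to IFNGR1, OSMR to LIFR and JAK1 to TYK2 sit below the control in both knockdown libraries, while IFNAR1 to IFNAR2 is lower in library 1 and higher in library 2.

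Across the 10 genes, the control was above both knockdown libraries for 6 (JAK1, TYK2, OSMR, IFNAR1, IFNAR2 and IFNGR2), where 33.5% of all genes tested had this pattern. It was below both for 2 (LIFR and IFNGR1), against 33.4% of all genes, and between them for JAK2 and IL6ST. The median of the mean log2 change was -0.44 over the 10 genes and -0.02 over all genes tested. None of the 10 was at least 2-fold lower in both libraries, a mark that 1.68% of all genes reached, and none was 2-fold higher, where 3.75% were.

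None of the 10 passed edgeR's adjusted threshold in either direction, as was the case for nearly the whole transcriptome: 3 genes passed as lower, or 0.0174% of those tested, and 0 as higher. Before adjustment, 4 of the 10 (JAK1, OSMR, IFNAR1 and IFNAR2) had an edgeR p under 0.05 and were lower, against 2.13% of all genes lower and 2.75% higher. Of the 10 genes, 9 averaged at least 100 counts, against 11236 of the 17287 tested, so the shares over all genes include many scarcer ones. DESeq2 was run on all genes with a count, including scarce ones that the edgeR filter removed. It gave no adjusted call among the 10 (0.0367% of 16335 genes with an adjusted p were lower and 0.0429% higher). For 2 of the 10, IFNAR1 and IFNAR2, its unadjusted p was under 0.05, against 0.708% of 27554 genes lower and 1.11% higher. The genes were selected knowing earlier results of these libraries, so these counts describe them and do not test them as a group.

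**Figure D3:**
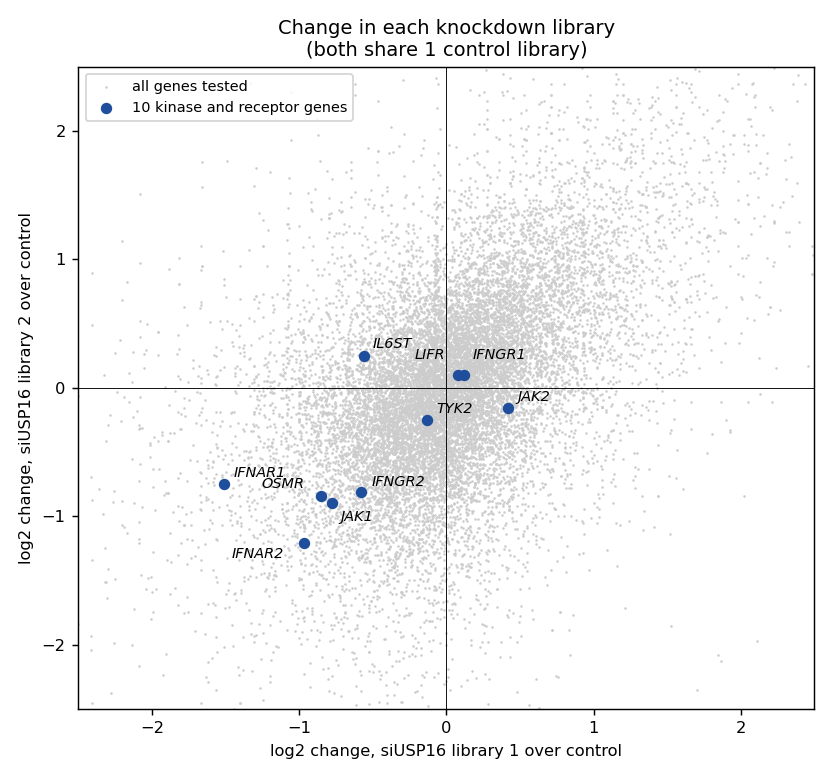
Log2 change over the control in knockdown library 1 (horizontal axis) and knockdown library 2 (vertical axis), with grey points for all 17287 genes tested and blue points for the 10 kinase and receptor genes. JAK1, OSMR, IFNGR2, IFNAR1 and IFNAR2 lie to the lower left and the other 5 near the centre or off the diagonal; the grey cloud leans along the diagonal, both axes contain the same control, and 280 genes beyond 2.5 on either axis are not drawn.

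Levels of different genes were compared per kilobase of merged exons. In the control the order was IL6ST (67.2 CPM per kb), JAK1 (63.6), OSMR (52.2), IFNGR2 (51.0), IFNGR1 (17.3), IFNAR1 (16.2), IFNAR2 (15.6), TYK2 (13.2), LIFR (4.78) and JAK2 (0.803). The Poisson intervals of neighbours overlapped for OSMR and IFNGR2, for IFNGR1 and IFNAR1, and for IFNAR1 and IFNAR2, so the order of each of these pairs is not resolved. JAK1 mRNA was far more abundant than that of its partner kinases, TYK2 and JAK2, in the control, and it had rank 2 of the 10 in both knockdown libraries, at 37.1 and 34.1 CPM per kb. IFNAR1 went from rank 6 in the control to rank 8 and rank 7, and TYK2 from rank 8 to rank 6 in both. Isoforms shorter than the merged exons would raise a gene's value, by an amount not given here.

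**Figure D4:**
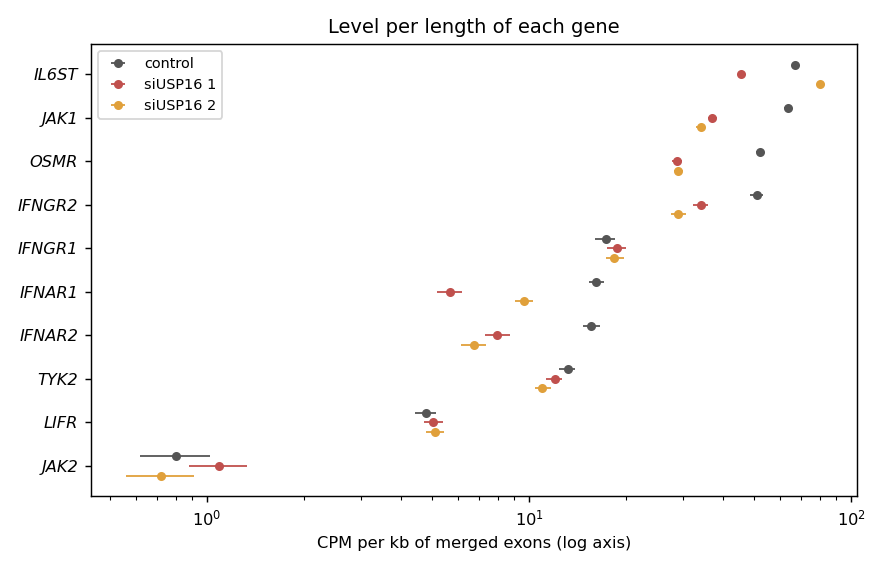
Level of each gene in CPM per kb of merged exons (logarithmic horizontal axis) in the control and the 2 knockdown libraries, with 95% Poisson intervals, ordered by the control. IL6ST, JAK1, OSMR and IFNGR2 form the upper end, and JAK2 lies lowest, near 1 CPM per kb.

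Of the chains, 3 share a place in the genome as well. IFNAR2, IFNAR1 and IFNGR2 lie on the plus strand of chromosome 21 within 249 kb (33229901 to 33479348, hg38), together with IL10RB, a chain of the receptors for interleukin-10 and interferon-lambda, and 4.18 Mb beyond the end of USP16. IL10RB had 696, 524 and 301 counts and changes of -0.50 and -1.43, so all 4 receptor chains of the cluster had the control above both knockdown libraries. Of the 9 other genes tested within 300 kb of the cluster, a window set after the receptor values were seen, 1 is the readthrough gene that shares exons with IFNAR2. For the other 8, the control was above both for 5, below both for 1 and between them for 2, with a median mean change of -0.14, where 33.5% of all genes tested had the control above both. The 5 include CRYZL1, which was level at 0.00 and -0.05. SON, an abundant neighbour that encodes a splicing cofactor, was level at 0.02 and 0.04, and ITSN1, which encodes an endocytic scaffold protein, was at -0.22 and -1.11. Over the 163 genes of chromosome 21 tested, the median mean change was 0.01.

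**Figure D5:**
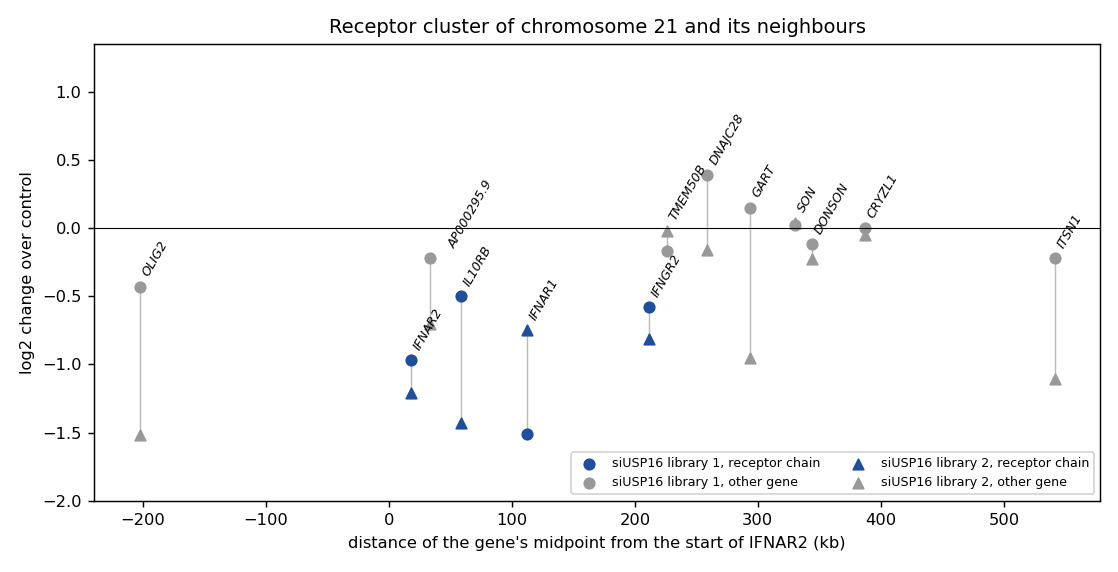
Log2 change over the control (vertical axis) against the distance of each gene's midpoint from the start of IFNAR2 in kb (horizontal axis), with circles for knockdown library 1, triangles for knockdown library 2, blue for receptor chains and grey for the other genes tested within 300 kb of the cluster. The 4 receptor chains lie below 0 in both libraries, with the closest value to 0 at -0.50. Of the other genes, TMEM50B, SON, CRYZL1 and DONSON stay within 0.23 of 0. In library 2, ITSN1 (-0.22 and -1.11), GART (0.15 and -0.95), AP000295.9 (-0.22 and -0.70) and the scarce OLIG2 (-0.43 and -1.52) are also well below 0.

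The likeness of other genes to JAK1 was measured over its pair of changes, by Euclidean distance among 11235 other genes averaging 100 counts or more. The nearest 3 were SLC35F5, a solute carrier (distance 0.0210, changes -0.79 and -0.88), KLF9, a zinc finger transcription factor (0.0221, -0.77 and -0.92), and IDH2, the mitochondrial isocitrate dehydrogenase (0.0260, -0.78 and -0.87). OSMR was at rank 30, at a distance of 0.0970. With 3 libraries such likeness is easily met: 141 genes lay within a distance of 0.2.

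No gene in the other pathway lists passed edgeR's adjusted threshold. Over all genes tested, the control was above both knockdown libraries for 33.5%, below both for 33.4% and between for 33.2%, and nothing particular to a list is read from the counts that follow. A scarce gene could pass the filter on low counts through 1 library alone, so its place in these counts is partly fixed by the filter, as for CNTFR (9, 16 and 22 counts) and GHR (12, 6 and 6) among the receptor chains and for STAT4 (6, 18 and 21). Of 36 other receptor chains that use JAKs, 19 were tested, and the control was above both knockdown libraries for 9, below both for 4 and between for 6. IL4R, the interleukin-4 receptor chain, was at -1.01 and -0.84, and IL6R, the ligand-binding partner of gp130, at -0.31 and -1.59 with 429, 369 and 165 counts. Of 44 ligands, 9 were tested, with the control above both for 4, below both for 2 and between for 3, and 21 had 0 counts in every library. LIF, the ligand of the LIFR and gp130 pair, had 4277, 2482 and 2933 counts (321, 175 and 189 CPM, log2 changes -0.87 and -0.77), and CLCF1, another ligand of the family, was at -0.90 and -0.47.

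Of 16 inhibitors of the kinases and receptors, 15 were tested, with the control above both knockdown libraries for 8, below both for 3 and between for 4. SH2B3, an adaptor that restrains JAK2 signalling, had 636, 357 and 302 counts (-0.92 and -1.29), and SOCS7 was at -0.34 and -0.54. The phosphatase PTPN11, which acts at gp130-type receptors, had 1970, 3994 and 3605 counts (0.93 and 0.65). The STAT factors with IRF9, all 8 of them tested, had the control above both for 4, below both for 1 (STAT4) and between for 3. IRF9, the DNA-binding partner of STAT factors in the type I interferon response, was at -0.52 and -0.68. The control was between the knockdown libraries for STAT3 and STAT5B, as for IL6ST, with 3287, 3020 and 6314 counts for STAT3.

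Short motifs were counted in the promoter windows of the 9 genes that had one, and IFNAR2 had no entry. The LIFR window (38595356 to 38595655, minus strand) lies inside the gene, whose annotated 5′ end is at 38608354. The IFNGR2 window (33403163 to 33403462, plus strand) begins in an annotated exon, past the annotated gene start at 33402896. For TYK2, IL6ST, OSMR and IFNGR1, the RefSeq start in the window lies inside the annotated gene. The STAT site TTCNNNGAA was found in 1 of the 9 (LIFR) against 7.66% of all windows. The ETS site CCGGAA was found in 4 against 17.2%, and the GC box in 5 against 45.0%. Both strands were searched, and overlapping matches were counted. The GC box was in the windows of JAK1, IL6ST, OSMR, IFNGR1 and IFNGR2. No link between a motif and the changes was tested.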

How the data were processed

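Messenger RNA sequencing libraries of 3 samples were analysed: the control by its treatment label and the USP16 siRNA samples by their titles. The values deposited by the authors are raw, whole-number counts of 50868 Ensembl genes. HISAT2 2.0.4, StringTie 1.3.0 and the build hg38 appear in the submitters' processing notes. Not given in the sources used here are the counting tool, its use of strand and its treatment of shared reads, so overlapping genes cannot be told apart with certainty. Per the file headers, the count column of the siUSP16 sample labelled 2 carries the number 6. No libraries were identical, and the knockdown libraries differed by a chi-square of 62.5 per degree of freedom.

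Counts were filtered with filterByExpr (17287 genes kept), scaled by TMM (factors 0.952, 1.02 and 1.03) and tested in edgeR 4.0.16 (R 4.3.3) by the quasi-likelihood method, adjusting p-values over all genes kept by Benjamini-Hochberg at a threshold of 0.05. With 1 residual degree of freedom, the test takes the spread of the lone control to equal that of the knockdown libraries. Log2 changes used log2 CPM with a prior count of 2. The code was tested on simulated data with changes larger than those of the 10 genes. That check does not show how the test performs at the sizes seen here. Alternatives were no filter, median-ratio size factors, a minimum mean of 100 counts, a prior count of 10, DESeq2 1.42.0 and leaving out each knockdown library; adding the readthrough gene to IFNAR2 was chosen after seeing the data. Positions and exon lengths came from GENCODE release 29 (hg38) and promoters from RefSeq (GRCh38.p14). Apart from the 10 genes, USP16, JAK3 and the cell type markers, genes were named by rule. It took up to 4 per list with the largest mean change (mean of at least 50 counts), the 3 nearest JAK1, and overlapping genes. Outside the rule, IL13RA1, CNTFR, GHR, STAT4, CRYZL1, SON, ITSN1, DONSON, OLIG2 and GART were chosen after their values were seen. STAT3 lay outside the rule as well, and not every gene the rule allows is described. Genes and lists were chosen with earlier results of these data known.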

Additional observations from a re-analysis of the deposited data

How the results depend on the processing

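The number of genes called over the whole transcriptome depended on the settings: edgeR called 3 lower and 0 higher, 30 lower and 40 higher with no filter on low counts, and 1 lower with a minimum mean of 100 counts, while DESeq2 called 6 lower and 7 higher. None of these settings called any of the 10 genes at the adjusted threshold. At an unadjusted p under 0.05 edgeR had 368 lower and 476 higher genes, with 4 of the 10 among the lower. Their median log2 change of -0.44 was -0.65 with the minimum of 100 counts, which drops JAK2, and ranged from -0.57 to -0.50 when a knockdown library was left out. The values of IL6ST ranged from -0.56 to 0.26 and those of JAK2 from -0.15 to 0.42 when a knockdown library was left out, so the sign of either mean change rests on 1 library; without siUSP16 library 1 IL6ST was at 0.26 and JAK2 at -0.15. In the 49 other recalculations of single genes the sign and the side of the threshold were as before. Leaving out a library leaves no residual degrees of freedom, so no test was made there. With 1 control library, no alternative can show how the control itself varies. No paired analysis was possible because there was only 1 control library, whose label carries no number.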

Other observations

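Some receptor chains, a ligand and an inhibitor of the same pathway had unequal changes in the knockdown libraries. IL27RA, the receptor chain that pairs with gp130 to bind interleukin-27, had 1385 counts in the control, 1189 in knockdown library 1 and 295 in knockdown library 2, with log2 changes of -0.31 and -2.45. EBI3, a subunit of interleukin-27, went the other way, with 223, 36 and 318 counts and changes of -2.66 and 0.29. IL13RA1, a receptor chain for interleukin-13, had 2634, 2950 and 1169 counts and changes of 0.07 and -1.39. SOCS2, a feedback inhibitor, had 662, 131 and 422 counts, lower in both knockdown libraries by unequal amounts. Each knockdown library is a single sample, so these differences between them were not tested.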
